A study of Arabidopsis thaliana with 16 samples.

Results

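The histone genes of Arabidopsis thaliana were followed through the seed-to-seedling transition. The set held 43 loci of the 40421 in the RNA-seq count table, chosen by name as the loci that encode core and linker histones, and the estimated counts of all transcripts of a locus were summed. They comprised 27 replication-linked loci (8 for H4, 5 for H3.1, 4 for H2A and 10 for H2B), 12 loci of replacement variants (3 for H3.3, 2 for H2A.X, 3 for H2A.W and 4 for H2A.Z), 3 loci of linker histone H1, and AT1G08170, an H2B-type locus treated apart as seed-type. The rule is by gene identity and uses no expression value, although earlier results of these data were known when the set was chosen. Total RNA depleted of ribosomal RNA was sequenced from 16 libraries in 8 groups of 2. All groups carried the Col-0 background. Wild-type groups were dry seed (DS), seed stratified in water in the cold and dark for 24 h (S24) or 72 h (S72), and stratified seed moved to continuous light in liquid medium for 6 h (L6), 26 h (L26, when radicles emerge) or 57 h (L57, green seedlings). The other groups were 57 h seedlings of the mutants hen2-4 and rrp4-2, each a single allele. The exosome degrades RNA from its 3′ end. RRP4 is one of its core subunits, and HEN2 is a helicase that works with it in the nucleus. The sources used here do not give the age of the dry seed. Whole seeds or seedlings were extracted, so embryo and endosperm were measured together, and fewer cells of a type and less RNA per cell cannot be told apart. No label says that the 2 libraries of a group stem from different cultures. A p-value here therefore refers to the spread of these libraries, and that spread may be technical.

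Histones package DNA into nucleosomes. In each nucleosome DNA wraps around an octamer of H2A, H2B, H3 and H4, and H1 binds the DNA between nucleosomes. Replication-linked genes are known to be transcribed mainly in S phase, when new DNA must be packaged, and H3.1 is placed behind the replication fork by the CAF-1 complex. Replacement variants are made also outside S phase. H3.3 is placed at transcribed genes, H2A.Z at gene starts and repressed genes, H2A.W in heterochromatin, and H2A.X is phosphorylated at DNA breaks. In seeds, chromatin is known to be compacted during maturation and loosened again in germination.

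The proteins annotated by RefSeq (TAIR10.1) followed this division. All 8 H4 loci encoded 1 protein of 103 residues, and all 5 H3.1 loci 1 protein of 136 residues. H3.1 and H3.3 (compared between AT5G65360 and AT4G40040) differed by A31T, F41Y, S87H and A90L, with the H3.1 residue first and positions counted after the initiator methionine. The 3 H3.3 loci encoded 2 different proteins in their longest annotated forms. That of AT4G40030 had 164 residues and the other 136, and AT4G40030 was not compared with H3.1. Both H2A.X proteins ended in the residues SQEF, the site phosphorylated at breaks, and all 3 H2A.W proteins held SPKK in their last 25 residues. The H2B-type protein of AT1G08170 had 243 residues and matched 48.3% to 53.8% of the residues of the shorter protein in alignments with the 10 other H2B proteins, which matched at 83.3% to 99.3% among themselves (45 pairs).

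The 130 bases before the annotated start of 10 loci are printed here because they hold, or lack, the short motifs by which histone promoters are usually described. The letters come from RefSeq, assembly TAIR10.1, and run 5′ to 3′ on the strand of the gene. Capitals mark, in either orientation, the octamer CGCGGATC (a motif known from plant histone promoters that are active in S phase), the site II letters TGGGCC (found in genes of growing cells), or the letters ACGTGGC and ACGTGTC of the abscisic acid response element (ABRE). The first set is the 5 H3.1 loci, which encode the same protein from different promoters.
AT1G09200, H3.1, chr1:2972335-2972464, minus strand: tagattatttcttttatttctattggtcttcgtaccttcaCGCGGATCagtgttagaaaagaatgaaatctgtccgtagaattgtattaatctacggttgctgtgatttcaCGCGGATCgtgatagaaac
AT5G10400, H3.1, chr5:3270958-3271087, minus strand: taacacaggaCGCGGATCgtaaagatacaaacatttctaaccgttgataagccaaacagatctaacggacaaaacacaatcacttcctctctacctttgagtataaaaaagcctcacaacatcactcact
AT5G65360, H3.1, chr5:26120582-26120711, minus strand: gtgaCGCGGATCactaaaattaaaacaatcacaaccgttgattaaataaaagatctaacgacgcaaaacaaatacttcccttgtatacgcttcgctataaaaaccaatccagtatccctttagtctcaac
AT3G27360, H3.1, chr3:10129938-10130067, minus strand: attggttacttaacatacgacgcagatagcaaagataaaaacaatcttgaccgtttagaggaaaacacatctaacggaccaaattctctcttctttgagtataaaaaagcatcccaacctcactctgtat
AT5G10390, H3.1, chr5:3269595-3269724, minus strand: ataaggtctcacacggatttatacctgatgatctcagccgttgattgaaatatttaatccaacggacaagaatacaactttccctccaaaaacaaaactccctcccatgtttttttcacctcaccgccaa

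The second set holds the loci of other classes whose levels are described in detail: the H3.3 locus AT4G40040, the linker locus AT1G06760, the H2B locus HTB4 (AT5G59910), and the loci with their highest level in dry seed, AT1G08170 and HIS1-3 (AT2G18050).
AT4G40040, H3.3, chr4:18558946-18559075, minus strand: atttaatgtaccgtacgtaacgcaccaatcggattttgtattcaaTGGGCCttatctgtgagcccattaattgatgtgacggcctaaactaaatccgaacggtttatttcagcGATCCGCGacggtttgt
AT1G06760, H1, chr1:2077768-2077897, minus strand: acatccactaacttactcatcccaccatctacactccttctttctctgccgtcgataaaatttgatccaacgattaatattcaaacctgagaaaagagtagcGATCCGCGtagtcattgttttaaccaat
AT5G59910, H2B, chr5:24126747-24126876, plus strand: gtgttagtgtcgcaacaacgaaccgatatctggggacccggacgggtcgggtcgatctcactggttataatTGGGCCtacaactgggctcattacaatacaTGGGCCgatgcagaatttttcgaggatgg
AT1G08170, H2B type, chr1:2563707-2563836, minus strand: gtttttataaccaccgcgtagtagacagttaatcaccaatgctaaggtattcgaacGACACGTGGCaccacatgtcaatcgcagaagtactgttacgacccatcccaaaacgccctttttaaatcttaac
AT2G18050, H1, chr2:7845793-7845922, plus strand: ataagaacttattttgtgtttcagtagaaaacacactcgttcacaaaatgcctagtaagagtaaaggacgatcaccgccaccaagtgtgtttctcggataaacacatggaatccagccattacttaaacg

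Over the 250 bases before the annotated start, read on both strands, the octamer stood in 10 of 43 histone promoters (23.3%) and in 37 of 27443 promoters of protein-coding genes (0.135%). Histone loci were 27.0% of all genes that held it. It was present at 3 of 5 H3.1 loci, 2 of 8 H4 loci, 2 of 4 H2A loci, the H2A.W locus HTA6, AT4G40040 and AT1G06760, and at 0 of 10 H2B loci, and it overlapped no other motif searched. The site II letters stood in 15 of 43 histone promoters (34.9%) and in 13.7% of all, with 7 of 10 H2B loci among them. The telo-box AAACCCTA was found in 0 of 43 against 4.49% of all, and 1 of the E2F letters TTTCCCGC, TTTGGCGC, TTTCGCGC or TTTGCCGC in 3 of 43 (6.98%) against 1.41% of all. The ABRE letters, added to the search after the expression values were seen, stood in 6 of 43 (14.0%) against 6.39%, and 4 of these loci encode H2B. At AT1G08170 the 2 forms overlapped on opposite strands. These are matches of letters and not measured binding.

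The libraries held 75.6 to 266 (median 175) estimated counts in units of 1000000, and the histone loci took 0.135% to 0.507% of them. Transcripts of the chloroplast genome took 3.99% to 49.7%, with the 6 seedling libraries at the top. The first DS library had 12.3% of its counts on nuclear ribosomal RNA against at most 1.33% elsewhere. Levels are given as CPM, the counts for each 1000000 of the library total after TMM scaling. The stage labels were checked with marker genes: 7 seed storage and late-embryogenesis genes summed to 98770 and 100863 CPM in DS and to 37.5 and 51.0 in L57, whereas 5 light-harvesting and Rubisco genes summed to 18.1 and 17.9 CPM in DS and to 19477 and 22959 in L57. HEN2 stood at 17.8 and 17.8 CPM in L57 and at 80.9 and 78.2 CPM in the libraries labelled hen2-4, so the targeted gene was higher there and not lower (2.16 ± 0.08 on the log2 scale), and which part of its transcript the reads came from was not tested. RRP4 stood at 6.28 and 5.59 CPM in L57 and at 7.72 and 5.63 CPM in rrp4-2, and the rrp4-2 difference was not called.

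Of the 43 loci, 42 passed the filter on low counts and were tested. The exception was HTA4 (AT4G13570), an H2A.Z locus, with 34 counts in the first S24 library and 0 in the other 15. Each locus was tested with edgeR's quasi-likelihood test in a fit of all 16 libraries and called at a Benjamini-Hochberg adjusted p under 0.05 over the 28824 genes tested. Changes are log2 fold changes of the second group over the first, with a standard error (SE). The SE was worked back from the test, as the absolute change over the square root of its F statistic.

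Histone transcripts were mostly higher after the first day of imbibition, mostly lower after the move to light, and mostly higher again at radicle emergence. From DS to S24, 35 of 42 loci rose and 5 fell, whereas 28.9% of all genes tested rose and 24.8% fell. The median change was 1.92 over the histone loci and 0.22 over all genes. From S24 to S72, 36 loci were called, 12 of them higher and 24 lower, against 53.8% of all genes called in either direction and 27.7% lower, with medians of -0.43 and -0.17. The rises there depended on the libraries and the scaling: 7 were left without the second S72 library, and the split became 6 higher and 27 lower when organellar and ribosomal features were left out of the totals.

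From S72 to L6, 4 loci rose and 36 fell, against 33.8% and 31.0% of all genes, and the medians were -1.31 and 0.00. The loci that rose were the H3.1 locus AT5G10400, the H2A.X locus HTA3 and the H2A.Z loci HTA8 and HTA11. From L6 to L26, 31 loci rose and 6 fell, against 30.2% and 28.1% of all genes (medians 0.96 and 0.00). Both counts stood far above the share of all genes in the leading direction, and neither changed by more than 1 locus with the other scalings tried.

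From L26 to L57, 5 loci rose and 24 fell (29.7% and 35.5% of all genes, medians -0.38 and -0.11), but this split depended on the scaling and was 14 higher and 12 lower with DESeq2 size factors and 10 and 22 in a fit of only the 4 libraries compared. DESeq2 size factors moved the median of all genes by 0.16 and that of the histone loci by 0.35. The linker loci AT1G06760 and AT2G30620 and the H2B locus HTB9 rose, and 11 loci fell, under every setting run. Over the whole course, DS to L57, 23 loci rose and 15 fell (40.5% and 37.7% of all genes, medians 0.61 and 0.00). The share that rose exceeded that of all genes, and the share that fell was close to it.

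**Figure D1:**
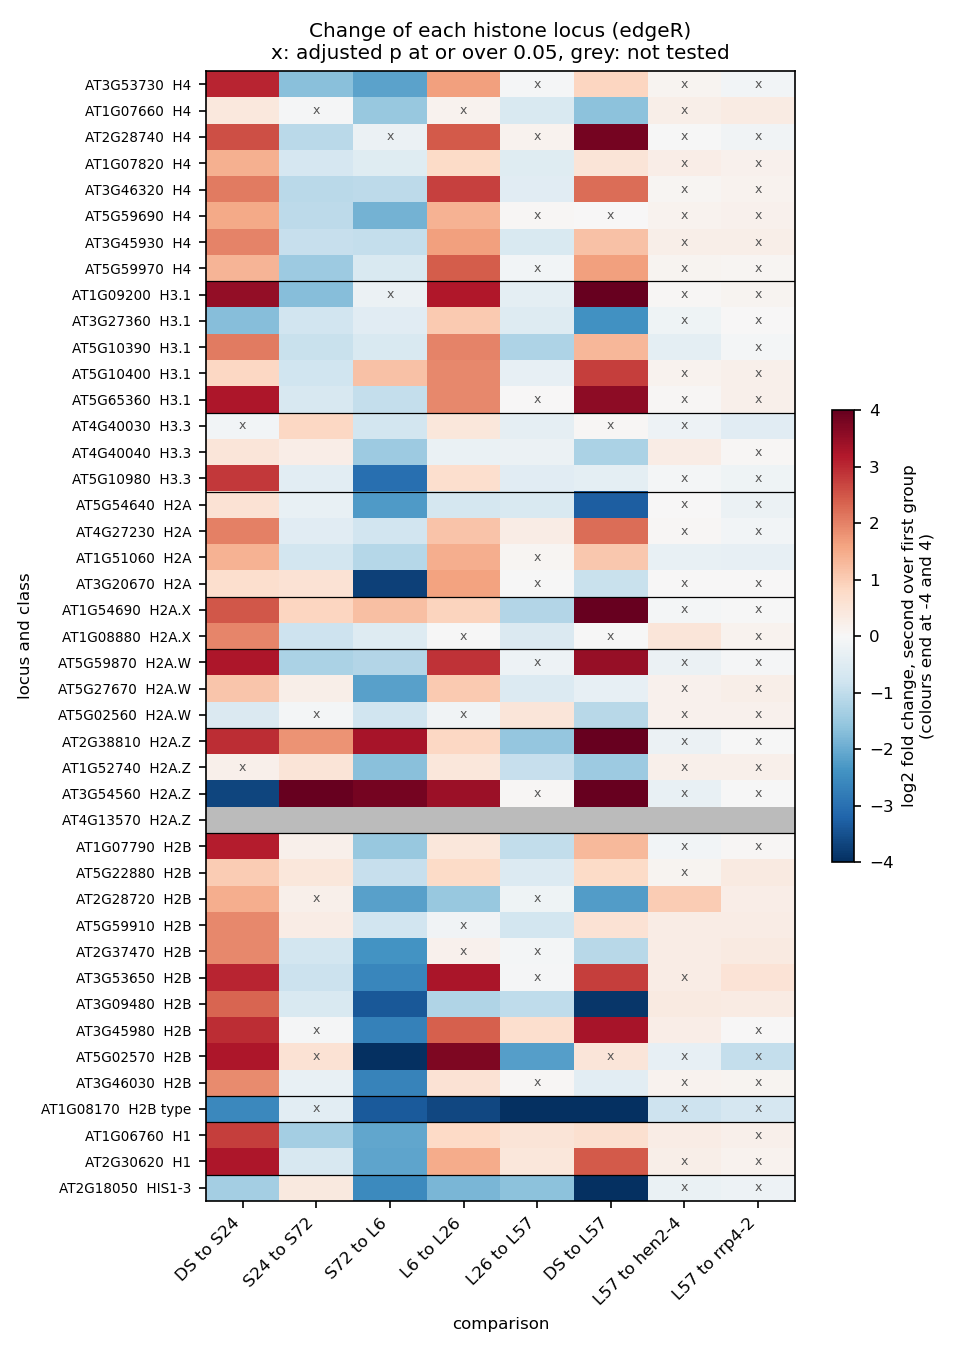
Log2 fold change of each of the 43 histone loci (rows, ordered by class) in 8 comparisons (columns), red for higher and blue for lower in the second group, with crosses where the adjusted p was at or over 0.05 and grey for the locus not tested. The first column is mostly red (35 of 42 higher), the third mostly blue (36 of 42 lower) and the fourth mostly red again (31 of 42 higher), while most cells of the mutant columns carry a cross.

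The classes kept different courses, and the summed levels of a class are given as descriptions, since 2 against 2 libraries cannot go below an exact permutation p of 0.333. The 27 replication-linked loci summed to 667 and 697 CPM in DS, 1849.8 and 2100.2 in S24, 1618 and 1678 in S72, 558 and 541 in L6, 871 and 911 in L26, and 764 and 739 in L57. The 12 replacement loci summed to 914 and 939 CPM in DS, 1746 and 2069 in S24, 1936 and 1985 in S72, 654 and 641 in L6, 817 and 799 in L26, and 589.6 and 596 in L57. Both sums were highest in stratified seed and lowest or near their lowest at L6, and only the replication-linked sum ended above its DS level in L57. From S24 to S72 they parted by locus: 19 of 27 replication-linked loci fell and 4 rose, and of 11 replacement loci tested 3 fell and 7 rose (5 with either other scaling).

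**Figure D2:**
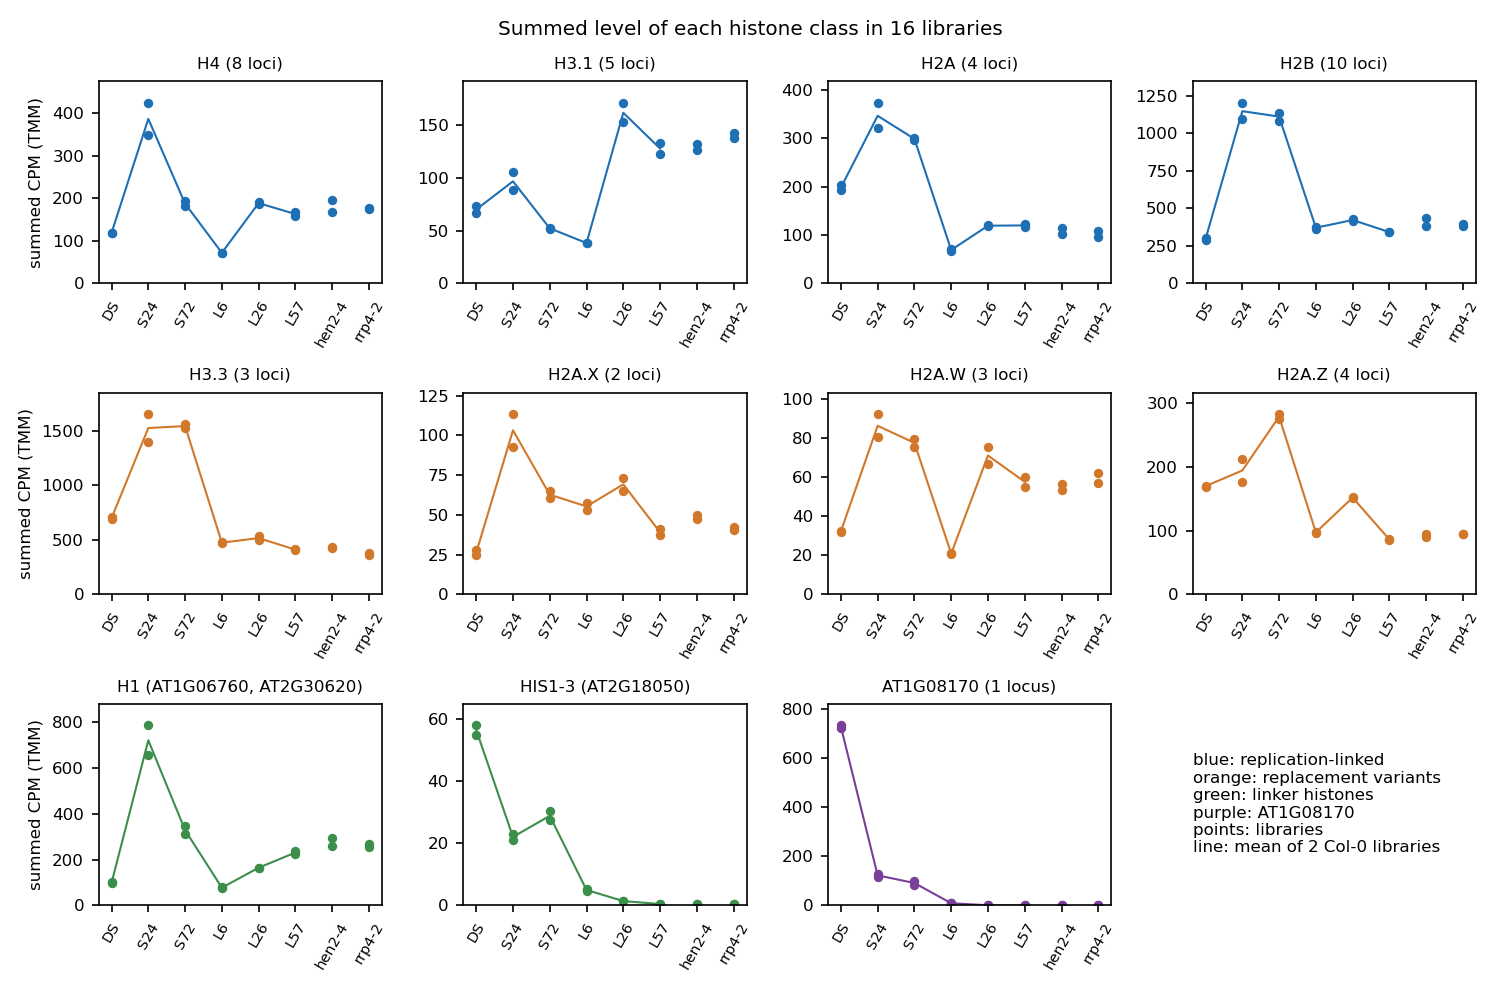
Summed CPM (TMM-scaled, y axis, each panel on its own scale from 0) of the histone classes in 8 groups (x axis), with a point for each library and a line through the means of the wild-type groups. Most panels peak in S24 or S72 and dip at L6, H3.1 is highest at L26 (with DESeq2 size factors L26 and L57 overlap), and HIS1-3 and AT1G08170 are highest in DS and near 0 in L57.

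H4, the most conserved histone, gave 119 and 118 CPM over its 8 loci in DS, 349 and 423 in S24, 181 and 193 in S72, 72.5 and 71.2 in L6, 187 and 190.0 in L26, and 167 and 159 in L57. All 8 loci rose from DS to S24 (the rise of AT1G07660, 0.43 ± 0.11, was not called under every setting run), 7 fell from S24 to S72, 7 fell from S72 to L6 and 7 rose from L6 to L26, so the class as a whole crossed its lowest level at L6. AT5G59690, the most abundant H4 locus by the authors' TPM (transcripts for each 1000000, which takes account of length) in every group, stood at 47.3 and 48.0 CPM in DS, 127 and 147 in S24, 18.1 and 17.4 in L6 and 46.3 and 47.6 in L26. Its rise to S24 was 1.52 ± 0.07 (SE, adjusted p = 1.4e-09) and its rise to L26 was 1.40 ± 0.07 (adjusted p = 4.0e-09). Although they encode the same protein, the H4 loci did not share 1 course. AT3G53730 went from 13.1 and 14.6 CPM in DS to 98.5 and 131 in S24 and back to 8.62 and 7.80 in L6, with a rise of 3.05 ± 0.14 and a fall of -2.13 ± 0.13 from S72. HIS4 (AT2G28740) had 0.61 and 0.54 CPM in DS, 3.03 and 3.78 in S24 (a rise of 2.58 ± 0.21), 1.27 and 1.47 in L6 and its highest level, 8.59 and 7.65, in L57, a change of 3.83 ± 0.21 from DS (adjusted p = 9.1e-10). AT1G07660 moved the other way over the course, from 23.7 and 22.5 CPM in DS to 7.69 and 7.29 in L57 (-1.63 ± 0.11, adjusted p = 1.0e-08).

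H3.1 differed from H4 in having its highest summed levels from radicle emergence on, at L26 and L57. Its 5 loci summed to 67.0 and 72.9 CPM in DS, 88.0 and 105 in S24, 52.9 and 51.4 in S72, 38.6 and 37.8 in L6, 152 and 171 in L26, and 133 and 122 in L57. The order of L26 and L57 depended on the scaling, since their change was -0.34 on the log2 scale here and 0.01 with DESeq2 size factors. All 5 loci rose from L6 to L26, by 1.03 to 3.19. AT1G09200, whose promoter holds the octamer in duplicate, had 1.71 and 1.76 CPM in DS, 18.7 and 21.4 in S24, 5.05 and 5.60 in L6, 44.7 and 52.6 in L26 and 39.3 and 34.7 in L57. It rose by 3.53 ± 0.13 from DS to S24 (adjusted p = 9.8e-11) and by 3.19 ± 0.11 from L6 to L26 (adjusted p = 1.5e-10), in both cases the steepest of the class. AT5G65360, the most abundant H3.1 locus by TPM in every group but DS, went from 13.1 and 12.1 CPM in L6 to 46.0 and 49.9 in L26 (1.93 ± 0.09, adjusted p = 1.8e-09). AT5G10400, the third with the octamer, was the only replication-linked locus that rose from S72 to L6, from 3.40 and 3.55 to 7.79 and 7.77 CPM (1.17 ± 0.13, adjusted p = 3.8e-06).

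AT3G27360 ran against the other H3.1 loci in dry seed. It stood at 55.6 and 59.4 CPM in DS, where it took 82.9% and 81.4% of all H3.1 counts, and fell to 16.7 and 18.6 in S24 (-1.70 ± 0.08, adjusted p = 1.9e-09) while the other 4 rose. In L57 it held 10.9 and 10.7 CPM and 8.17% and 8.75% of H3.1 counts. The locus shares 28.8% of its 125-base windows with the overlapping gene AT3G27380, and reads there cannot be assigned to either with certainty. AT3G27380 had its lowest level in DS, 19.8 and 22.5 CPM, and rose from DS to L57 by 1.28 ± 0.08. The part of shared reads in the DS level of AT3G27360 was not tested.

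Of the 10 loci with the octamer, 8 rose, 1 fell and 1 was not called from L6 to L26, and all 10 rose from DS to S24. Of all histone loci tested, 31 of 42 and 35 of 42 rose in these steps, so the counts are near those of the whole set and nothing is read from them. Among H3.1 loci the 3 with the octamer rose by 3.19, 1.91 and 1.93 from L6 to L26, and the 2 without it by 1.03 (AT3G27360) and 1.99 (AT5G10390), so that the ranges overlapped. The H3.3 locus AT4G40040, which also holds it, fell in that step (-0.28 ± 0.08, adjusted p = 0.0093).

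H2A loci exchanged places during germination. RAT5 (AT5G54640), an H2A gene known for its role in T-DNA integration, held 64.0% and 64.7% of replication-linked H2A counts in DS and 10.4% and 11.2% in L57. It had 123 and 132 CPM in DS, 175 and 204 in S24, 156 and 154 in S72, 33.3 and 31.0 in L6, 21.4 and 18.5 in L26 and 12.8 and 13.1 in L57, a change of -3.30 ± 0.09 from DS to L57 (adjusted p = 1.1e-12). HTA10 (AT1G51060), with the octamer in duplicate, moved from 31.7 and 33.6 CPM in DS to 70.5 and 66.4 in L57 (1.07 ± 0.09) and took 57.5% and 56.6% of the class there. HTA13 (AT3G20670) had the largest fall at the move to light among replication-linked loci with at least 1 CPM, from 80.6 and 77.9 CPM in S72 to 6.41 and 5.44 in L6 (-3.74 ± 0.10, adjusted p = 5.6e-12), and recovered to 17.9 and 18.6 in L26. HTA2 (AT4G27230) rose from 4.08 and 4.61 CPM in DS to 20.9 and 20.3 in L57 (2.23 ± 0.11).

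H2B was the replication-linked class with the largest share of histone TPM in every wild-type group. Its 10 loci summed to 289 and 302 CPM in DS, 1093 and 1199.6 in S24, 1083 and 1137 in S72, 376 and 365 in L6, 414 and 429 in L26, and 342 and 341 in L57. All 10 rose from DS to S24, by 1.03 to 3.24, and all 10 fell from S72 to L6. HTB4, first of the class by TPM in L6 and L26 (HTB11 led in DS, S24 and S72), had 76.0 and 80.0 CPM in DS, 289 and 306 in S24, 352 and 375 in S72, 216 and 209.8 in L6 and 116 and 116 in L57, and carried 57.5% and 57.4% of H2B counts in L6. Its fall from S72 to L6 was -0.77 ± 0.07 (adjusted p = 6.0e-07), the smallest of the class, whose median was -2.50.

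Beyond L6 the H2B loci divided. HTB9 (AT3G45980) rose from 9.70 and 9.96 CPM in L6 to 48.0 and 54.8 in L26 (2.39 ± 0.09, adjusted p = 3.5e-10) and to 80.1 and 84.7 in L57, and became the leading H2B locus by the authors' TPM there. AT3G53650 rose by 3.25 ± 0.17 from L6, to 4.73 and 5.35 CPM in L26. AT2G28720 and AT3G09480 fell again from L6 to L26. AT3G09480 went from 86.0 and 94.5 CPM in S24 to 6.03 and 5.39 in L6 and 1.17 and 1.28 in L57, a change of -3.88 ± 0.11 from DS (adjusted p = 7.3e-13). AT2G28720 went from 117 and 139 CPM in S24 to 33.6 and 31.7 in L6 and 11.9 and 10.8 in L26 (-1.53 ± 0.09 in the last step, adjusted p = 1.2e-08). AT5G02570, which overlaps the H2A.W locus HTA12, stood at no more than 0.38 CPM in any library.

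Among the replacement variants, H3.3 was the most abundant class in the wild-type groups from S24 to L57 when compared by TPM. It took 26.05% of histone TPM in DS, 32.4% in S24, 37.4% in S72, 36.05% in L6, 26.3% in L26 and 24.8% in L57 (means of 2 libraries). The summed level was 688 and 709 CPM in DS, 1397 and 1651 in S24, 1521 and 1563 in S72, 478 and 469.8 in L6, and 403 and 418 in L57. The S24 and S72 values overlapped. The 3 loci carried this differently. AT5G10980 had 109 and 109 CPM in DS, 695 and 838 in S24, 576 and 567 in S72 and 72.9 and 69.0 in L6, so that its share of H3.3 counts rose from 15.8% and 15.3% in DS to 49.8% and 50.7% in S24 and returned to 15.2% and 14.7% in L6. Its rise was 2.82 ± 0.10 (adjusted p = 6.5e-11) and its fall from S72 to L6 was -3.01 ± 0.10 (adjusted p = 1.7e-11). AT4G40040 changed less, from 448 and 467 CPM in DS to 591 and 680.2 in S24, 731 and 781 in S72, 274 and 274 in L6 and 187 and 194 in L57. AT4G40030, the neighbour of AT4G40040 on chromosome 4, stayed between 111 and 215 CPM in all wild-type libraries, with its highest level in S72 (214 and 215).

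H2A.X followed both courses in its 2 loci. HTA5 (AT1G08880) peaked in S24 at 89.1 and 109 CPM, from 24.0 and 27.0 in DS, and returned to 26.7 and 23.9 in L57. HTA3 (AT1G54690), annotated as GAMMA-H2AX, instead rose at each of the first 4 steps, from 0.65 and 0.78 CPM in DS to 3.92 and 4.16 in S24, 7.14 and 7.65 in S72, 17.2 and 16.6 in L6 and 28.8 and 34.0 in L26, and then fell to 14.2 and 13.3 in L57. Its change from DS to L57 was 4.24 ± 0.13 (adjusted p = 1.7e-12), while that of HTA5 was -0.02 ± 0.11 and not called.

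H2A.W, the heterochromatin variant, summed to 32.3 and 32.1 CPM in DS, 80.3 and 92.2 in S24, 20.6 and 21.1 in L6 and 66.4 and 75.6 in L26. HTA6 (AT5G59870) carried the later rise, from 5.48 and 5.76 CPM in L6 to 37.8 and 44.8 in L26 (2.88 ± 0.10, adjusted p = 2.3e-10), after 3.09 and 3.35 in DS and 28.3 and 32.5 in S24. HTA7 (AT5G27670) was the main seed locus, with 24.8 and 24.6 CPM in DS, 60.7 and 63.7 in S72, 13.6 and 13.7 in L6 and 20.8 and 18.2 in L57. HTA12 (AT5G02560) stood at 4.42 and 4.23 CPM in DS and 1.99 and 1.99 in L57 and fell over the course (-1.12 ± 0.18, adjusted p = 6.2e-05).

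H2A.Z rested on HTA9 (AT1G52740) in seed and on HTA9, HTA11 and HTA8 together in seedlings. HTA9 had 169 and 170.1 CPM in DS, 175 and 212 in S24, 274 and 281 in S72, 88.2 and 86.6 in L6, 121 and 117 in L26 and 61.0 and 64.1 in L57, and its share of H2A.Z counts went from 99.91% and 99.95% in DS to 71.2% and 74.2% in L57. It fell from S72 to L6 by -1.67 ± 0.08 (adjusted p = 6.0e-10), in the step at which HTA8 and HTA11 rose. HTA8 (AT2G38810) had 4 counts in the first DS library and 0 in the second, and 0.66 and 1.00 CPM in S72, 7.92 and 8.29 in L6, 14.4 and 14.7 in L26 and 5.30 and 4.69 in L57. HTA11 (AT3G54560) had 0.08 and 0.08 CPM in DS, 0 and 3 counts in S24, 0.09 and 0.15 CPM in S72, 1.68 and 1.65 in L6, 17.2 and 18.6 in L26 and 19.4 and 17.6 in L57. The ratio of L57 to DS was 225 for HTA11 (exact 95% interval 125 to 450.3), and the ratio of L26 to DS was 486 for HTA8 (189.8 to 1786), both from pooled counts and for counting error only. From S72 to L6 HTA8 rose by 3.28 ± 0.21 (adjusted p = 1.1e-08) and HTA11 by 3.83 ± 0.20 (adjusted p = 1.4e-09).

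The seed-type locus AT1G08170 was the most abundant histone locus of dry seed and almost undetected in seedlings. It had 724 and 736 CPM in DS, 116 and 129.8 in S24, 98.2 and 84.7 in S72, 9.25 and 8.66 in L6, 1.03 and 0.41 in L26 and 0.04 and 0.03 in L57, the last from 4 and 3 counts. The DS to L57 ratio of pooled counts was 19830.3 (exact 95% interval 9624 to 49324, counting error only), and the fitted changes were -2.57 ± 0.23 to S24, -3.35 ± 0.24 from S72 to L6 and -3.65 ± 0.28 from L6 to L26 (adjusted p = 5.1e-07, 3.0e-08 and 1.4e-07). From S24 to S72 the change of -0.43 ± 0.22 was not called (adjusted p = 0.11), but it was called at -0.65 without organellar and ribosomal features. By TPM it made up 71.0% and 70.4% of all H2B-type transcripts in DS, 9.28% and 9.44% in S24, 2.68% and 2.58% in L6 and 0.0121% and 0.00875% in L57. RefSeq notes for this locus name the male gametophyte and flower, tissues not sampled here. Of 7 seed storage and late-embryogenesis markers, 7 fell from DS to S24, L6 to L26 and L26 to L57, as AT1G08170 did. In these steps 24.8%, 28.1% and 35.5% of all genes fell. From S72 to L6, 3 of 7 fell and 4 were not called (median -0.11), against 31.0% of all genes that fell. From S24 to S72, 3 rose and 3 fell, against 53.8% of all genes called and 27.7% lower. Of 3 endosperm markers, 2 rose and 1 fell from DS to L57. The part of either marker list in the result was not tested.

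The linker loci split in the same way. HIS1-3 (AT2G18050), an H1 gene known in Arabidopsis for induction by drought and abscisic acid, had 54.9 and 58.0 CPM in DS, 21.1 and 23.0 in S24, 30.3 and 27.3 in S72, 4.69 and 5.24 in L6, 1.51 and 1.29 in L26 and 0.42 and 0.47 in L57, a change of -6.99 ± 0.13 from DS to L57 (adjusted p = 3.4e-14). Its small rise from S24 to S72 (0.39 ± 0.09, adjusted p = 0.0022) was 0.16 and not called without organellar and ribosomal features. AT1G06760 and AT2G30620 went the opposite way: AT1G06760 from 77.1 and 81.6 CPM in DS to 488 and 589 in S24, 49.9 and 50.3 in L6 and 122 and 128 in L57, and AT2G30620 from 18.8 and 19.6 to 166 and 197, 26.5 and 27.9, and 103 and 108. Their rises from DS to S24 were 2.76 ± 0.10 and 3.24 ± 0.10 (adjusted p = 1.1e-10 and 2.7e-11), and both rose again from L6 to L26 and from L26 to L57.

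**Figure D3:**
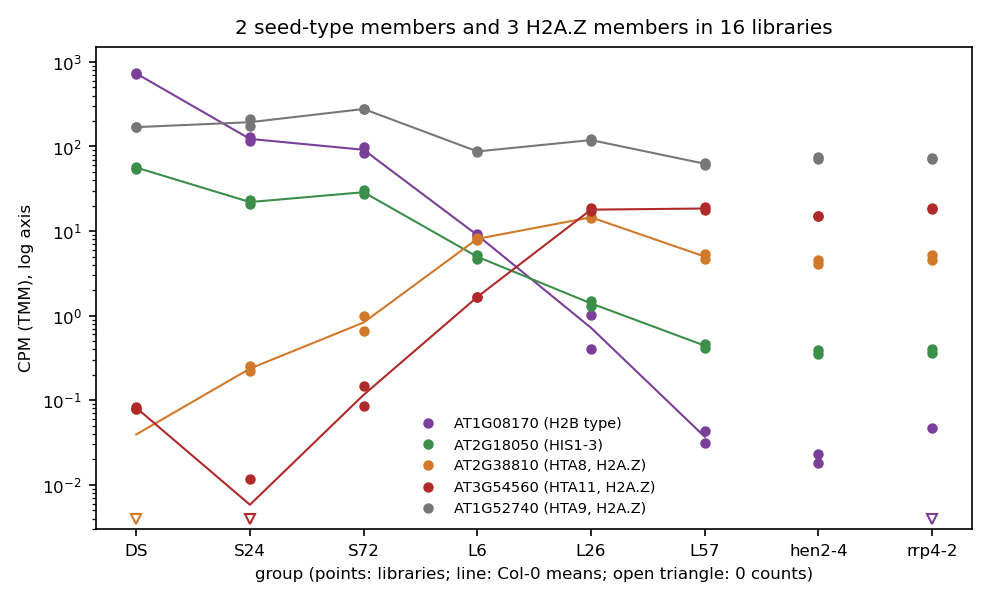
CPM (TMM-scaled, log axis) of the seed-type H2B locus AT1G08170, the linker locus HIS1-3 and the H2A.Z loci HTA8, HTA9 and HTA11 in 8 groups (x axis), with a point for each library, a line through wild-type means and an open triangle for 0 counts. AT1G08170 goes from 724 and 736 CPM in DS to 0.04 and 0.03 in L57 and HIS1-3 from 54.9 and 58.0 to 0.42 and 0.47, while HTA11 goes from 0.08 to 19.4 and 17.6 and HTA9 stays above 60 CPM.

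The balance of H3.1 and H3.3 was read within each library, where it does not depend on scaling between libraries. The log2 ratio of H3.1 to H3.3 counts was -3.36 and -3.28 in DS, -3.99 and -3.97 in S24, -4.85 and -4.93 in S72, -3.63 and -3.63 in L6, -1.81 and -1.55 in L26 and -1.60 and -1.78 in L57. H3.1 was thus 3.36% and 3.19% of these H3 counts in S72 and 22.2% and 25.5% in L26, and the L26 and L57 values overlapped. The place of dry seed in this order rested on AT3G27360. Without that locus, a choice made after seeing the data, the ratio was -5.90 and -5.71 in DS and -4.29 and -4.25 in S24, so that DS lay below S24 and below S72 (-5.17 and -5.23), while the rise from S72 to L26 remained (-1.95 and -1.69 in L26).

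**Figure D4:**
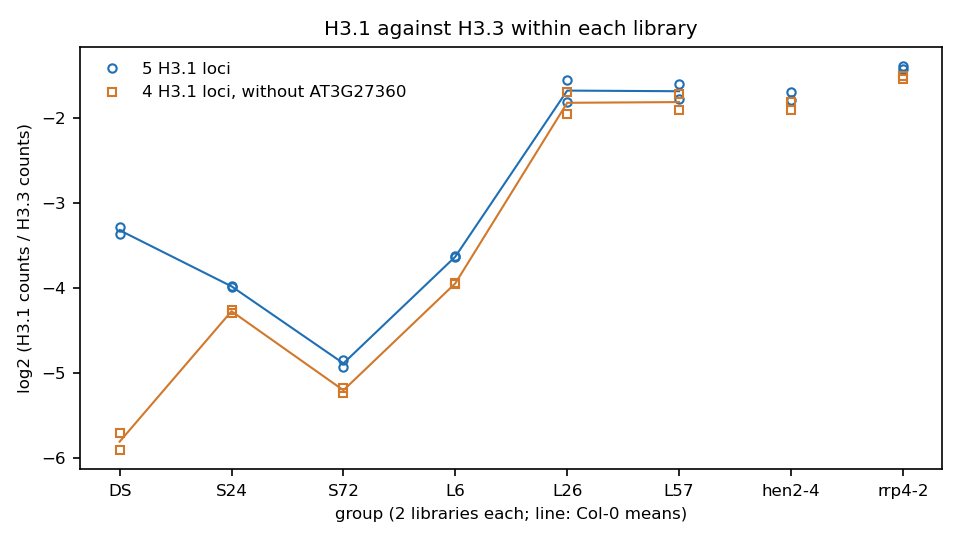
Log2 ratio of summed H3.1 counts to summed H3.3 counts within each library (y axis) in 8 groups (x axis), with all 5 H3.1 loci (circles) and without AT3G27360 (squares), and lines through wild-type means. Both series rise from S72 to L26, from about -4.9 to -1.7 for all 5 loci, and they differ by more than 2 only in DS.

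Replication-linked histones and the replication machinery did not keep the same timing. The 9 replication fork genes (MCM2 to MCM7, subunits of the DNA helicase, PCNA1 and PCNA2, the sliding clamp, and ICU2, the catalytic subunit of DNA polymerase alpha) summed to 4.38 and 4.88 CPM in DS, 7.52 and 6.23 in S24, 12.1 and 11.9 in S72, 117 and 113 in L6, 291 and 315 in L26 and 155 and 144 in L57. In DS and S24 the fork genes were thus near their lowest level, and in S24 the replication-linked histones were at their highest. From DS to S24, 6 of 9 fork genes rose and 1 fell, and 26 of 27 replication-linked histone loci rose and 1 fell. Of all genes, 28.9% rose and 24.8% fell in that step. From S24 to S72, 8 fork genes rose and 0 fell, while 4 histone loci rose and 19 fell. In that step 53.8% of all genes were called and 27.7% fell. From S72 to L6, 9 of 9 fork genes rose while 24 of 27 histone loci fell and 1 rose (33.8% of all genes rose and 31.0% fell). From L6 to L26, 9 of 9 fork genes and 21 of 27 histone loci rose (30.2% of all genes). MCM7 went from 0.34 CPM in S72 to 12.9 in L6 (5.25 ± 0.23, adjusted p = 2.2e-10). The fork gene counts from S72 to L6 and from L6 to L26 were the same with DESeq2 size factors and without organellar and ribosomal features. Those of the histone loci differed by 1 fall from L6 to L26.

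**Figure D5:**
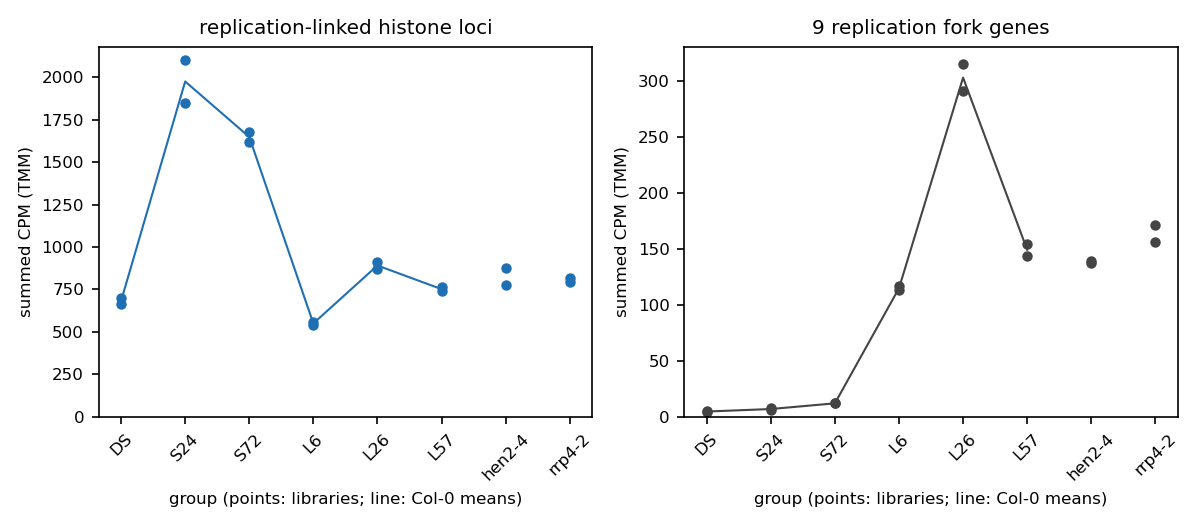
Summed CPM (TMM-scaled) of 27 replication-linked histone loci (left) and 9 replication fork genes (right) in 8 groups, with a point for each library and a line through wild-type means, each axis from 0. The histone sum is highest in S24 (1849.8 and 2100.2) and lowest in L6, and the fork gene sum is near 0 up to S72 and highest in L26 (291 and 315).

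Genes that place histones into chromatin were counted beside them. Of 22 chaperone and assembly genes, 7 rose and 5 fell from DS to S24, 13 and 3 from S24 to S72 (11 and 6 without organellar and ribosomal features), 14 and 7 from S72 to L6, 8 and 10 from L6 to L26, and 0 and 18 from L26 to L57 (1 and 15 with DESeq2 size factors). Of all genes tested, 28.9% rose and 24.8% fell from DS to S24, and 33.8% and 31.0% from S72 to L6. From L6 to L26 the shares were 30.2% and 28.1%, and from L26 to L57 29.7% and 35.5%. From S24 to S72, 53.8% were called in either direction and 27.7% fell. The DS to S24 counts were near these shares. Their split was 5 and 8 with DESeq2 size factors and 11 and 2 without organellar and ribosomal features, so no direction is given for that step. The largest rises from S72 to L6 were those of ATXR6 (5.71 ± 0.82), TSK (4.74 ± 0.47) and the CAF-1 subunit FAS2, from mean levels of 0.02, 0.05 and 0.07 CPM to 0.97, 1.45 and 1.21. ATXR6 and TSK are known to recognise H3.1 by the residue changed in A31T, and CAF-1 places H3.1 at the fork. Of 5 other H3 genes, 4 were tested. CENH3 (AT1G01370), the centromeric H3, rose from 0.43 CPM in L6 to 2.52 in L26 (2.53 ± 0.23, adjusted p = 5.5e-07), and all 4 fell from S72 to L6.

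In the exosome mutants, most histone loci were not called. Both comparisons used the same 2 L57 libraries. In the libraries labelled hen2-4, 8 of 42 loci were higher and 2 lower than in L57, against 19.7% and 10.6% of all genes tested, and in rrp4-2 7 were higher and 2 lower, against 18.0% and 8.54%. These shares are near those of all genes. They also depended on scaling: with DESeq2 size factors the splits were 2 and 7 for the libraries labelled hen2-4 and 0 and 5 for rrp4-2, and without organellar and ribosomal features 4 and 6, and 2 and 4. The number called also depended on single libraries. It dropped without either L57 library, the first hen2-4 library or the first rrp4-2 library. It changed least without the second hen2-4 library or the second rrp4-2 library.

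The call kept in every setting for the libraries labelled hen2-4 was AT2G28720, an H2B locus, which had 10.2 and 9.86 CPM in L57 and 21.3 and 19.4 in those libraries (1.02 ± 0.09, adjusted p = 5.3e-06), and 12.8 and 11.5 in rrp4-2 (0.28 ± 0.09, adjusted p = 0.040). For rrp4-2 it was the H3.3 locus AT4G40030, with 134 and 139 CPM in L57, 93.3 and 106 in rrp4-2 (-0.45 ± 0.09, adjusted p = 0.0022) and 115 and 123 in the libraries labelled hen2-4 (-0.20 ± 0.09, adjusted p = 0.11). Whether either locus differed between the mutants was not tested. AT1G08170 had 5 and 4 counts in the libraries labelled hen2-4 and 10 and 0 in rrp4-2. The log2 ratio of H3.1 to H3.3 was -1.70 and -1.79 in the libraries labelled hen2-4, which overlapped L57, and -1.39 and -1.42 in rrp4-2, above both L57 libraries. Endosperm markers summed to 599 and 535 CPM in L57, 183 and 175 in the libraries labelled hen2-4 and 116 and 111 in rrp4-2, and 2 of 3 fell in each comparison. Nearly all of this sum was CP1 (AT4G36880), with 594 and 527 CPM in L57, 179 and 171 in the libraries labelled hen2-4 and 110 and 105 in rrp4-2. EPR1 (AT2G27380), the other that fell, had only 0.49 and 0.60 CPM in L57, and EXPA2 (AT5G05290) was not called. Green seedling markers summed to 19477 and 22959 CPM in L57, 18980 and 19725 in the libraries labelled hen2-4 (1 of 5 fell) and 14338 and 15854 in rrp4-2 (3 of 5 fell). Seed markers summed to 37.5 and 51.0 CPM in L57, 24.3 and 26.7 in the libraries labelled hen2-4 (4 of 7 fell) and 61.6 and 46.8 in rrp4-2 (1 of 7 rose and 1 fell). The part of these marker lists in the mutant values was not tested. HTR11 (AT5G65350), an H3-like gene outside the 43 loci, had 0.25 CPM in L57, 0.84 in the libraries labelled hen2-4 (1.72 ± 0.31) and 0.90 in rrp4-2 (1.82 ± 0.31).

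Some loci share sequence, which bears on their single values. Reads matching several places were kept by the authors at 1 random location. AT3G46320 and AT3G45930 (H4) shared 6.92% and 6.32% of their 125-base windows, and AT1G07660 and AT1G07820 (H4) 2.17% and 1.52%. Each window spans 125 bases, so the shared stretches are larger parts of the transcripts than these shares of windows. Reads from the shared stretches cannot be assigned to either locus with certainty. De novo transcripts run antisense to 5 loci (AT3G53730, HTA10, HTA7, HTB4 and AT2G37470), with at most 1.74 CPM in any library. Annotated genes also overlap HTA13 (AT3G20680), HTA3 (AT1G07983 and AT1G54680), HTA9 (AT1G52750) and HTA4 (AT4G13564). Others overlap HTB9 (AT3G07315 and AT3G45970), AT1G06760 (AT1G04503 and AT1G06750) and AT2G30620 (AT2G30630). The window comparison read only the strand of each transcript, and the part of these overlaps in the counts was not tested. The sources used here do not state whether counting used strand.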

How the data were processed

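The authors sequenced rRNA-depleted total RNA as paired reads from a stranded library, aligned these with STAR 2.7.9a against TAIR10 (a multimapped read was kept at 1 random location) and quantified Araport11 and de novo transcripts with StringTie 2.1.4. The deposited estimated counts per transcript are not scaled between libraries, and the deposited TPM values sum to 1000000 per library over part of the transcripts. Estimated counts were summed per locus and tested with edgeR 4.0.16 (quasi-likelihood, TMM, filterByExpr, R 4.3.3) in 1 fit of 16 libraries, with Benjamini-Hochberg adjustment over 28824 genes. DESeq2 1.42.0, other scalings, no filter, a replicate block and single libraries left out were alternatives. The histone loci and lists were chosen with earlier results of these data known. Named genes were the most abundant of each class, AT1G08170, HIS1-3 and HTA4, the largest rises and falls of a comparison at 1 CPM or more, and loci moving against their class. Other loci were named after their values were seen. Same-numbered libraries did not deviate together (r from -0.05 to 0.09 over 28 pairs of groups). Count ratios carry exact 95% intervals for counting error only. These treat the estimated counts as counts of independent reads, which they are not strictly.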

Additional observations from a re-analysis of the deposited data

How the results depend on the processing

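The number of histone loci called from L57 to the libraries labelled hen2-4 was 10, against 5 with no filter and 3 to 9 with 1 library left out. From L57 to rrp4-2 it was 9, against 5 with DESeq2 size factors, 5 with the DESeq2 Wald test, 3 with no filter and 1 to 7 with 1 library left out. In the 6 wild-type comparisons the number called stayed within 1.5 times, although its split by direction did not. HTB1 (AT1G07790) from S24 to S72 reversed to -0.011 without organellar and ribosomal features, and AT4G40040 from L26 to L57 reversed to 0.10 with DESeq2 size factors and 0.10 with the DESeq2 Wald test. The causes were not tested. Without AT3G27360, an alternative chosen after seeing the data, the change in the log2 ratio of H3.1 to H3.3 was 1.53 in place of -0.66 from DS to S24 and 3.99 in place of 1.64 from DS to L57. Of the single loci described, 989 values kept their call and direction under an alternative, 108 lost the call and 3 reversed. Of the class sums, 88 moved by less than the spread between libraries and 152 by more.

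Replicate numbers did not pair the libraries. With the replicate block, 40 loci were called from DS to S24, 36 from S24 to S72, 40 from S72 to L6, 37 from L6 to L26, 29 from L26 to L57, 38 from DS to L57, 10 for hen2-4 and 7 for rrp4-2.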
